A study of Mus musculus with 7 samples.

Results

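The 10 genes described here encode proteins that bring long-chain fatty acids into cells or carry them inside: the fatty acid binding protein (FABP) genes Fabp1, Fabp2, Fabp4, Fabp5 and Fabp7, the receptor gene Cd36, and the fatty acid transport protein (FATP) genes Slc27a1, Slc27a2, Slc27a4 and Slc27a5. They were taken by name from the non-control probes of a single-colour Agilent array of the mouse genome, which yielded 11 probes for 10 of 36492 gene names. Liver RNA was measured in 3 wild type (WT) and 4 SHIVA female mice of 8 to 12 weeks, each fasted for 24 h and each hybridized to its own array. Both genotypes had the C57BL/6 background. SHIVA mice descended from a chemical (ENU) mutagenesis screen and carried a point mutation in the DNA-binding HMG domain of the transcription factor Sox17, in heterozygous form according to the study's text. The mutation was present in every cell of the animal, and no fed mice were among these arrays, so levels describe the fasted state and not a response to fasting.

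Fasting releases fatty acids from adipose tissue, and the liver takes them up for oxidation and ketone body production. CD36 is a membrane receptor that facilitates fatty acid uptake. FATPs span membranes and also act as acyl-CoA synthetases, which traps the fatty acid as its CoA ester, and FABPs are small soluble carriers that bring fatty acids to organelles and to nuclear receptors such as PPARα, a fatty acid sensor that drives the fasting program of hepatocytes. Several of these genes are themselves known targets of PPARα. The design asks how their transcripts differ between fasted livers with and without the Sox17 mutation.

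No gene among the 10 passed the test between genotypes, and the genes did not share a direction. Fabp1 and Fabp2 had lower mean signals in SHIVA livers, Fabp4, Fabp5 and Cd36 had higher ones, and the hepatocyte transporters Slc27a2 and Slc27a5 had log2 fold changes of 0.05 and 0.04. Values are log2 signals after quantile normalization, all fold changes are SHIVA over WT, and a gene was called when limma gave a Benjamini-Hochberg adjusted p under 0.05 over all 20002 genes tested. By that rule 0 of the 10 genes were called, beside 75 genes of the array (0.375%). At an unadjusted limma p under 0.05, 4 of the 10 stood out (Fabp2, Fabp4, Fabp5 and Cd36), beside 13.3% of all genes tested. The median log2 fold change was -0.05 over the 10 genes and -0.01 over all genes, and the median absolute value was 0.41 and 0.19. In 2 of the 10 genes the genotypes did not overlap, Cd36 being higher and Slc27a4 lower in every SHIVA liver, beside 12.2% of all genes tested (6.14% higher and 6.02% lower).

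All 10 genes passed the filter on dim signals, with every probe well above background on all 7 arrays, and 0 spots of the arrays were saturated. The share of all probes well above background was 44.5% to 46.3% for WT and 45.8% to 48.7% for SHIVA arrays. Hepatocyte markers had mean log2 signals of 16.05 to 16.19 in WT and 15.95 to 16.26 in SHIVA livers. All arrays lay on 1 slide and came from 1 scan, with WT in one row and SHIVA in the other, so genotype and slide row cannot be told apart. Because whole liver was measured, fewer cells of a type and less RNA per cell cannot be told apart either. The number of mice limits the precision of every comparison, and the smallest p of an exact permutation test over the 35 ways to split 7 livers into 3 and 4 was 0.0286.

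Upstream sequences are shown for Fabp1 and Fabp2, whose mean signals were lower in SHIVA livers, and for Cd36, whose signal was higher. RefSeq, build GRCm38.p6, gave 250 bases before the transcript start for 7 of the 10 genes, in 9 windows. Each is written 5′ to 3′ on the gene's strand and ends at the base before the start. Capitals mark letters found on either strand: the direct repeat 1 (AGGNCA, any 1 base, AGGNCA, where N is any base), the arrangement that PPARα and its partner RXR bind, AGGTCA, a single nuclear receptor core which may lie within that repeat, ACAAT, the core bound by SOX factors, and TATAAA, the TATA box.
Fabp1 (chr6:71199629-71199878, plus strand): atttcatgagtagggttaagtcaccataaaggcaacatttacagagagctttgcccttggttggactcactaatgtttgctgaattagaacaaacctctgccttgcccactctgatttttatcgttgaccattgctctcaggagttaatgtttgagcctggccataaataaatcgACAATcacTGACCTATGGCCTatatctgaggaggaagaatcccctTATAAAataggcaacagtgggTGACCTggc
Fabp2 (chr3:122894822-122895071, plus strand): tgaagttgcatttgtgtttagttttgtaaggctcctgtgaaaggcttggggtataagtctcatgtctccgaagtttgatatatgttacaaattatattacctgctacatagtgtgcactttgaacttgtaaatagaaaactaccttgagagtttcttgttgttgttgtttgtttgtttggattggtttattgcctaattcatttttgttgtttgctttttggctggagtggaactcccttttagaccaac
Cd36 (chr5:17835897-17836146, minus strand): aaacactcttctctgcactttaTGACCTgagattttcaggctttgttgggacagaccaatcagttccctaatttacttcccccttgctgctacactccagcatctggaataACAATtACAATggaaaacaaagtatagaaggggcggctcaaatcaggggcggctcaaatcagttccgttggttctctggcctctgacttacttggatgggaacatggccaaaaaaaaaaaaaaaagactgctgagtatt

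The Fabp1 window held the direct repeat once, 67 to 55 bases before the start and in reverse orientation, where it reads TGACCTATGGCCT. A match to it was held by 0.338% of all 32851 RefSeq windows of that length. The first 6 letters of that stretch are also a single core, and another lay 9 to 4 bases before the start. An ACAAT stood 75 to 71 bases before the start and a TATAAA 30 to 25 bases before it. The Cd36 window held 1 single core, 228 to 223 bases before the start, and ACAAT at 139 to 135 and at 133 to 129 bases. The Fabp2 window held none of these letters. Single cores occurred in 14.0% of all windows, ACAAT in 27.7% and TATAAA in 12.4%. A match describes the letters only.

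Fabp1 encodes the liver form of FABP, the main fatty acid carrier of the hepatocyte cytosol. Its probe (mm9, chromosome 6, 71154906 to 71154965, plus strand) gave log2 signals of 16.59, 16.62 and 16.23 in WT livers 1 to 3 and 16.07, 16.02, 16.39 and 15.61 in SHIVA livers 1 to 4. SHIVA 4 was the lowest and SHIVA 3 lay above WT 3, so the genotypes overlapped. The means were 16.48 ± 0.21 (SD, n = 3) and 16.02 ± 0.32 (SD, n = 4), for a SHIVA-over-WT log2 difference of -0.46 with a standard error of 0.21 (limma, 95% interval -0.93 to 0.01, adjusted p = 0.39).

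Fabp2 encodes the intestinal form, known from enterocytes and also transcribed in mouse liver. Its probe (chromosome 3, 122602276 to 122602335, plus strand) gave 13.12, 12.70 and 12.20 in WT and 11.78, 11.84, 11.70 and 12.48 in SHIVA livers. SHIVA 1, 2 and 3 lay below every WT liver, while SHIVA 4 lay above WT 3. The means were 12.68 ± 0.46 (SD, n = 3) and 11.95 ± 0.36 (SD, n = 4), and the log2 fold change of -0.73 (standard error 0.26, 95% interval -1.33 to -0.12) had a limma p of 0.0237 and an adjusted p of 0.287. Among 8 markers of small intestinal epithelium, 7 (Vil1, Lct, Sis, Cdx1, Cdx2, Alpi and Cdh17) were well above background on no array and the remaining one, Apoa4, which liver also makes, had a log2 fold change of -1.19 (limma adjusted p = 0.235) with no overlap between genotypes. The part of intestinal tissue in the Fabp2 signal was not tested.

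Fabp4 encodes the form of adipocytes and macrophages. Its probe (chromosome 3, 10204452 to 10204511, minus strand) gave 8.97, 8.44 and 8.11 in WT and 9.36, 9.49, 9.46 and 8.95 in SHIVA livers. The highest WT liver, WT 1, was just above the lowest SHIVA liver, SHIVA 4, and otherwise the genotypes were apart. The means were 8.50 ± 0.44 (SD, n = 3) and 9.31 ± 0.25 (SD, n = 4), for a SHIVA-over-WT log2 difference of 0.81 (1.75-fold, standard error 0.23, 95% interval 0.28 to 1.34) with a limma p of 0.00734 and an adjusted p of 0.211.

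Fabp5 encodes the epidermal form, which is found in many tissues including macrophages. Its probe (chromosome 3, 10016185 to 10016244, plus strand) gave 8.37, 7.76 and 8.93 in WT and 10.40, 9.42, 11.17 and 8.84 in SHIVA livers. SHIVA 1 to 3 lay above every WT liver and SHIVA 4 lay just below WT 3, and the 4 SHIVA livers spread more widely than for any other gene of the 10. The means were 8.36 ± 0.58 (SD, n = 3) and 9.96 ± 1.03 (SD, n = 4). The log2 fold change of 1.60 (3.03-fold, standard error 0.53, 95% interval 0.40 to 2.81) was the largest of the 10 and had a limma p of 0.0151 and an adjusted p of 0.25. The array design also assigns this probe to a predicted non-coding RNA record, so its signal may not be of Fabp5 alone.

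Fabp7, the brain form, had log2 signals of 7.83, 6.50 and 7.21 in WT and 6.83, 7.47, 6.80 and 7.05 in SHIVA livers (chromosome 10, 57508039 to 57508098, plus strand). The WT livers held both the highest and the lowest value. The means were 7.18 ± 0.67 (SD, n = 3) and 7.04 ± 0.31 (SD, n = 4), and the log2 fold change was -0.14 (standard error 0.31, 95% interval -0.85 to 0.56, limma adjusted p = 0.884).

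Cd36 had the smallest limma p of the 10 genes. Its probe (chromosome 5, 17288600 to 17288659, minus strand) gave 7.96, 7.91 and 8.13 in WT and 8.59, 9.14, 8.54 and 8.71 in SHIVA livers. Every SHIVA liver lay above every WT liver, SHIVA 2 being the highest. The means were 8.00 ± 0.11 (SD, n = 3) and 8.75 ± 0.27 (SD, n = 4), and the log2 fold change was 0.75 (1.68-fold, standard error 0.18, 95% interval 0.34 to 1.16). Limma gave a p of 0.00271 and an adjusted p of 0.147, so the gene was not called. A two-sided exact permutation test gave 0.0286, the smallest p this design allows, and 0.391 after adjustment over all genes.

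**Figure D1:**
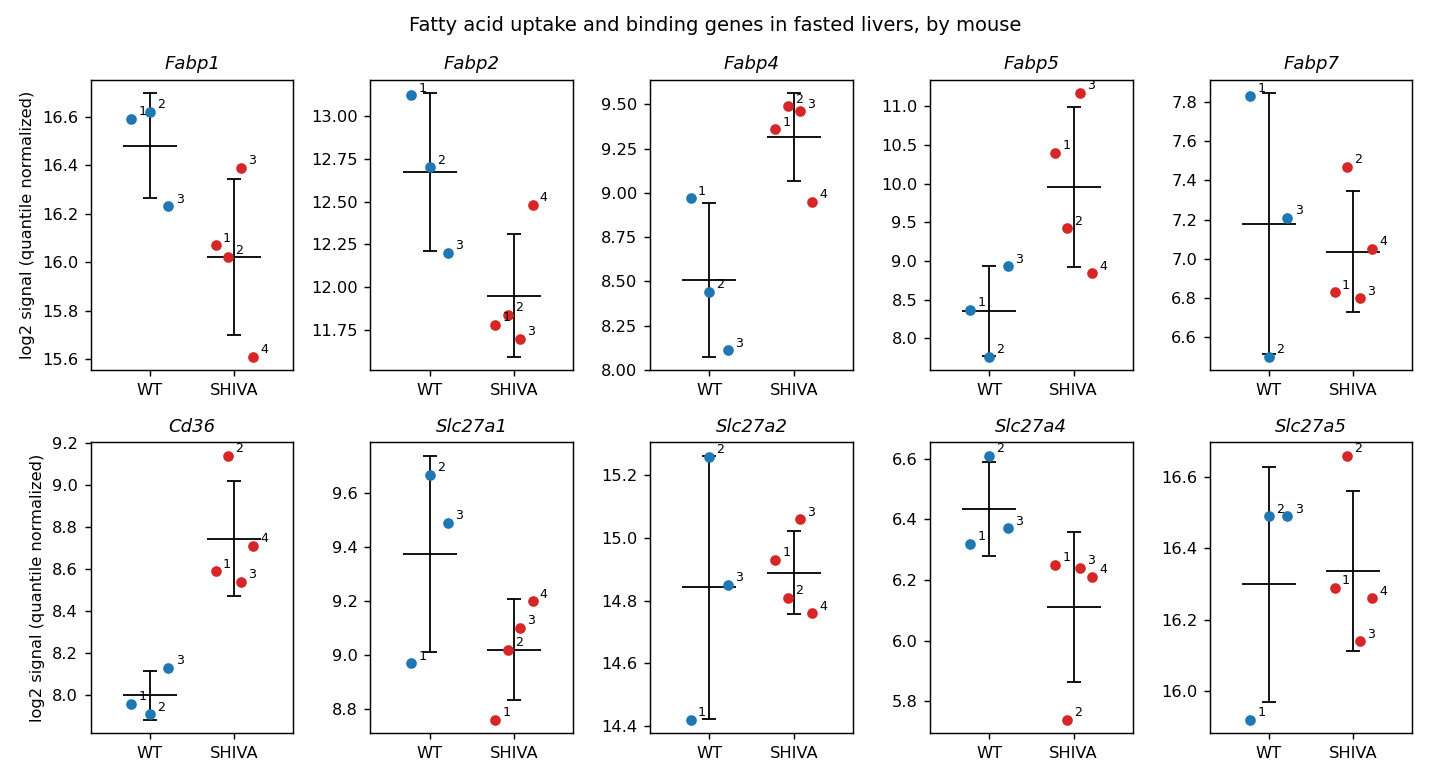
Log2 signals (quantile normalized, vertical axes, each with its own range) of the 10 genes in WT livers 1 to 3 (blue) and SHIVA livers 1 to 4 (red); points are mice, numbered, and black bars give mean ± SD. The Cd36 panel has all SHIVA livers at 8.54 or above and all WT livers at 8.13 or below, while in the Fabp panels SHIVA 4 sits nearer to WT livers for Fabp2, Fabp4 and Fabp5.

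Among the FATP genes, Slc27a2 and Slc27a5 are the forms of hepatocytes. Slc27a2 encodes FATP2, which activates very long chain fatty acids, and its probe (chromosome 2, 126413890 to 126413949, plus strand) gave 14.42, 15.26 and 14.85 in WT and 14.93, 14.81, 15.06 and 14.76 in SHIVA livers. All SHIVA livers lay within the WT range. The means were 14.84 ± 0.42 (SD, n = 3) and 14.89 ± 0.13 (SD, n = 4), for a SHIVA-over-WT log2 difference of 0.05 (standard error 0.21, limma adjusted p = 0.951), and the 95% interval of the fold reached from 0.746 to 1.43.

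Slc27a5 encodes FATP5, which also joins bile acids to CoA before their conjugation. The brighter of its probes (chromosome 7, 13573701 to 13573760, minus strand) gave 15.92, 16.49 and 16.49 in WT and 16.29, 16.66, 16.14 and 16.26 in SHIVA livers, with WT 1 lowest and SHIVA 2 highest. The means were 16.30 ± 0.33 (SD, n = 3) and 16.34 ± 0.22 (SD, n = 4), for a SHIVA-over-WT log2 difference of 0.04 (standard error 0.20, limma adjusted p = 0.961) with a 95% interval of the fold from 0.746 to 1.41. The second probe (chromosome 7, 13573924 to 13573983, minus strand) gave 14.71, 15.49 and 15.55 in WT and 15.39, 15.27, 15.40 and 15.40 in SHIVA livers, for a SHIVA-over-WT log2 difference of 0.11 (standard error 0.22, limma adjusted p = 0.871 over all probes), and it too was lowest in WT 1. At the level of probes, 0 of the 11 were called beside 0.232% of all 26258 probes tested.

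Slc27a1 and Slc27a4 had lower means in SHIVA livers without passing the test. Slc27a1 encodes FATP1 of muscle and adipose tissue, and its probe (chromosome 8, 74110256 to 74110315, plus strand) gave 8.97, 9.67 and 9.49 in WT and 8.76, 9.02, 9.10 and 9.20 in SHIVA livers. WT 1 lay within the SHIVA range and the other WT livers above it. The means were 9.38 ± 0.36 (SD, n = 3) and 9.02 ± 0.19 (SD, n = 4), for a SHIVA-over-WT log2 difference of -0.36 (standard error 0.20, 95% interval -0.82 to 0.10, limma adjusted p = 0.496).

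Slc27a4 encodes FATP4, known from intestine and skin. Its probe (chromosome 2, 29672983 to 29673042, plus strand) gave 6.32, 6.61 and 6.37 in WT and 6.25, 5.74, 6.24 and 6.21 in SHIVA livers. All WT livers lay above all SHIVA livers, by a narrow margin except for SHIVA 2, and the genotypes overlapped when the mean spot signal, normexp correction or the authors' table was used. The means were 6.43 ± 0.15 (SD, n = 3) and 6.11 ± 0.25 (SD, n = 4), for a SHIVA-over-WT log2 difference of -0.32 (standard error 0.17, 95% interval -0.72 to 0.08, limma adjusted p = 0.48).

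**Figure D2:**
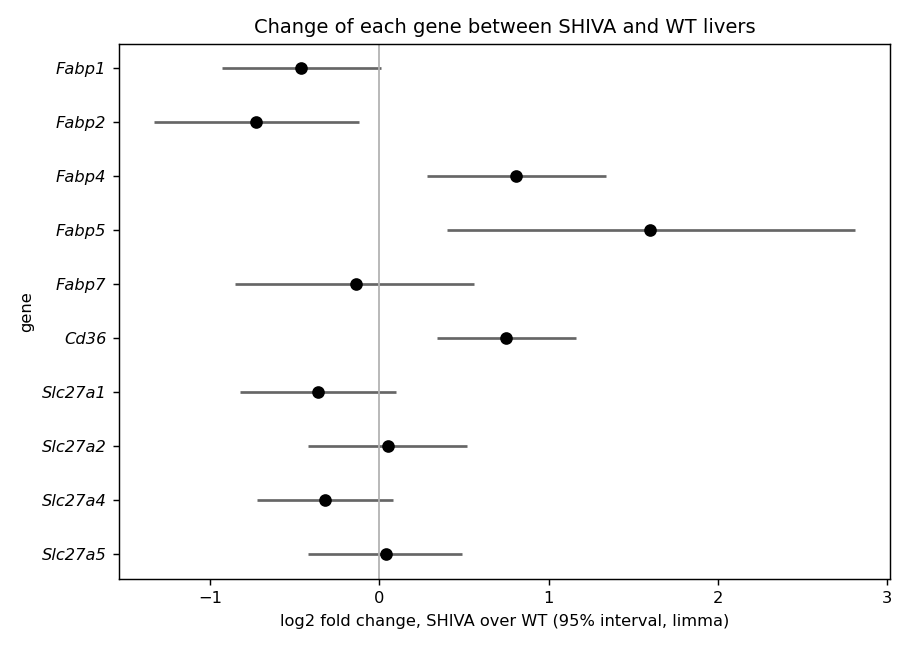
Log2 fold change of each of the 10 genes, SHIVA over WT (horizontal axis), with points for limma estimates and lines for 95% intervals. The intervals of Fabp4, Fabp5 and Cd36 lie above 0, that of Fabp2 lies below 0, and the others include 0; no gene passed the adjusted threshold.

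Mice of one genotype also differed from each other. Among the WT livers all 4 FATP genes were lowest in WT 1 and highest in WT 2, which for Slc27a5 equalled WT 3 at the precision printed. Fabp1, Fabp2 and Fabp4 were lowest in WT 3. Among SHIVA livers, SHIVA 4 had the lowest Fabp1, Fabp4 and Fabp5 and the highest Fabp2. The SD was larger in WT for 6 genes and larger in SHIVA livers for 4. These are descriptions over few animals and carry no test.

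Differences between paralogs were then taken within each liver, which leaves out a scaling factor common to an array. Effects of normalization or background that depend on the signal level do not cancel in these differences. A difference between probes has no meaning as a level, but its shift between genotypes shows unequal change of the genes. Fabp1 minus Fabp4 was 7.61, 8.18 and 8.12 in WT and 6.70, 6.54, 6.93 and 6.66 in SHIVA livers, so all SHIVA livers lay below all WT livers. The shift was -1.27 on the log2 scale. Fabp1 minus Fabp5 was 8.21, 8.85 and 7.30 in WT and 5.67, 6.60, 5.22 and 6.77 in SHIVA livers, again without overlap, with a shift of -2.06. Both pairs reached 0.0286 in the two-sided exact permutation test, the smallest p possible. Over the 16 pairs compared (10 of FABP and 6 of FATP genes) the smallest adjusted p was 0.229 and 0 passed 0.05. After this adjustment a pair could pass only if many of the 16 reached 0.0286 together. The adjusted values therefore could not decide about a single pair.

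Fabp2 minus Fabp4 was 4.15, 4.27 and 4.10 in WT and 2.41, 2.35, 2.24 and 3.53 in SHIVA livers. The WT livers lay close together, and SHIVA 4 stood between them and the other SHIVA livers. The shift was -1.54 (exact permutation p = 0.0571, adjusted 0.229). The hepatocyte pair Slc27a2 minus Slc27a5 shifted by 0.01 (exact permutation p = 0.943), with SDs of 0.20 in WT and 0.32 in SHIVA livers. Slc27a1 minus Slc27a4 shifted by -0.03 (exact permutation p = 0.914). Other FATP pairs shifted more. Slc27a1 minus Slc27a2 shifted by -0.40 (exact permutation p = 0.0857). Slc27a1 minus Slc27a5 shifted by -0.39 (exact permutation p = 0.143), without overlap. Of the 16 pairs, 5 had no overlap, Fabp5 minus Fabp7 (shift 1.74) among them. Pairs share genes, so a shift of a single gene enters several of them and they are not separate results. No share over other pairs of genes was taken for comparison.

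**Figure D3:**
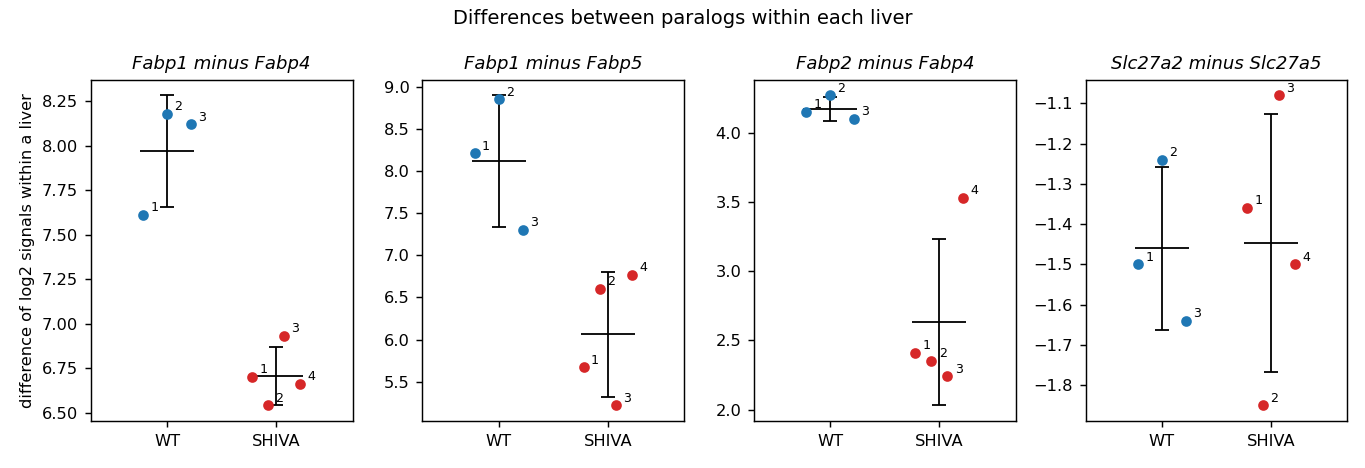
Difference of log2 signals of paralogs within each liver (vertical axes, each with its own range), with numbered points for mice, WT in blue and SHIVA in red, and black bars for mean ± SD. Fabp1 minus Fabp4, Fabp1 minus Fabp5 and Fabp2 minus Fabp4 are lower in all SHIVA livers, while Slc27a2 minus Slc27a5 overlaps.

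Of the other genes in these families, Slc27a3 (FATP3) alone passed the filter on dim signals, and Fabp3, Fabp6, Fabp9, Fabp12, Pmp2 and Slc27a6 did not. Slc27a3 was well above background on 1 of 3 WT and 4 of 4 SHIVA arrays, so it passed that filter through the SHIVA livers. It had log2 signals of 3.46, 3.70 and 4.76 in WT and 4.97, 4.89, 5.18 and 4.52 in SHIVA livers, and the genotypes overlapped.

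The genes that act beside these proteins in uptake and trapping were taken as a list of 22, with acyl-CoA synthetases, acyl-CoA and lipid binding proteins, lipases, lipoprotein receptors, caveolar genes and other lipid carriers, of which 19 were tested. Of these, 1 was called, with 9 lower and 10 higher and a median log2 fold change of 0.05. The called gene was Lpl, lipoprotein lipase, which frees fatty acids from circulating triglycerides. Its probe (chromosome 8, 71430267 to 71430326, plus strand) gave 7.46, 6.95 and 8.07 in WT and 9.46, 9.95, 9.71 and 9.27 in SHIVA livers, with all SHIVA livers higher by more than 1 log2 unit than any WT liver. Lpl rose by 2.11 on the log2 scale (standard error 0.28, 95% interval 1.48 to 2.73, limma adjusted p = 0.0268). The call was lost without WT 1 (adjusted p = 0.154), WT 2 (0.111), SHIVA 1 (0.0757) or SHIVA 3 (0.0752), while the log2 fold change stayed between 1.80 and 2.39 over 18 alternatives, 10 of which called it (adjusted p from 0.00856 to 0.391).

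Vldlr, the receptor for very low density lipoproteins, had 6.66, 7.18 and 7.29 in WT and 7.96, 8.13, 7.62 and 8.11 in SHIVA livers, with no overlap. Its log2 fold change of 0.91 (standard error 0.20, limma adjusted p = 0.133) did not pass. Mfsd2a, a lipid carrier, lay as far on the other side at -0.91 (standard error 0.39, limma adjusted p = 0.371), with overlap.

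**Figure D4:**
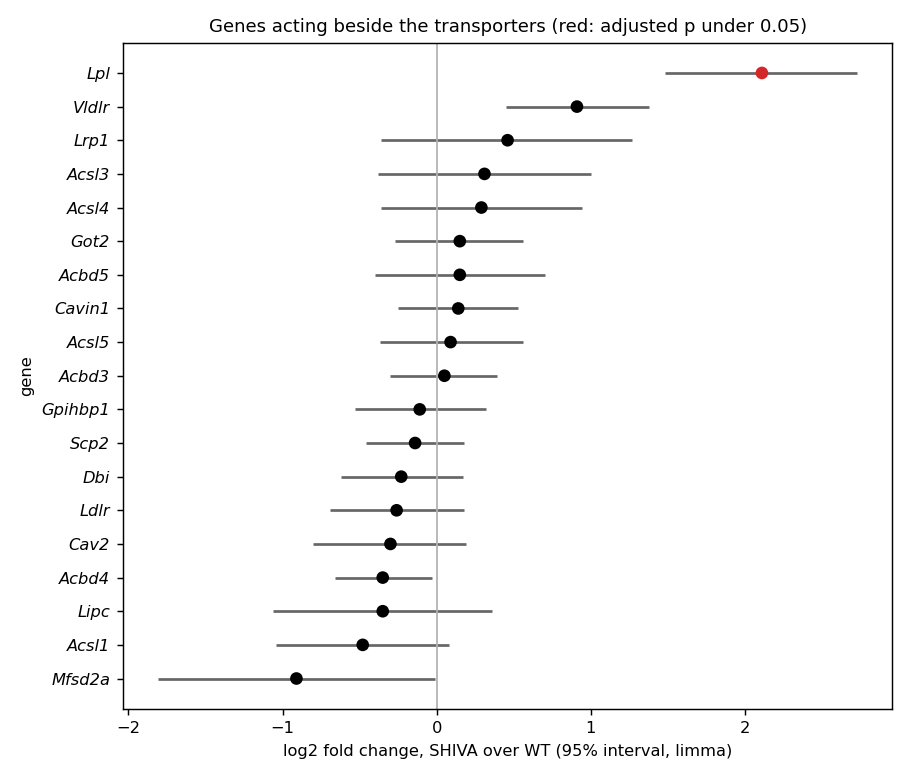
Log2 fold change, SHIVA over WT (horizontal axis), of the 19 tested genes that act beside the transporters, with limma estimates as points and 95% intervals as lines. Lpl, in red, is the gene with an adjusted p under 0.05, at 2.11. Vldlr is at 0.91 and Mfsd2a, the lowest, at -0.91.

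Of 7 genes for the addition or removal of palmitate on CD36, for kinases that relay its signals or for a ligand, 5 were tested and 0 were called, with a median log2 fold change of -0.02. The furthest from 0 were the palmitoyltransferases Zdhhc4 at -0.24 (limma adjusted p = 0.522) and Zdhhc5 at 0.15 (limma adjusted p = 0.77), whose sign turned among 18 alternatives (-0.11 to 0.25). Of 5 genes that shorten or conjugate the side chain of bile acids, beside the bile acid ligase Slc27a5, 5 were tested and 0 called, with a median of -0.11. Hsd17b4, a peroxisomal beta-oxidation enzyme, had 12.65, 13.43 and 12.66 in WT and 12.50, 12.52, 12.51 and 12.59 in SHIVA livers. WT 2 stood above all the others, and the log2 fold change of -0.38 (limma adjusted p = 0.473) ranged from -0.58 to -0.13 over the alternatives. The racemase Amacr had 0.18 (limma adjusted p = 0.684).

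Among 25 nuclear receptors, transcription factors and coregulators known for roles in lipid and hepatocyte gene regulation, with Sox17 added as the mutated gene to make 26, 25 were tested and 0 were called. Of the 25, 19 were lower and 6 higher, with a median log2 fold change of -0.13, and 51.2% of all genes tested were lower. Ppara had 12.19, 12.61 and 12.33 in WT and 11.66, 11.75, 11.64 and 11.78 in SHIVA livers. The genotypes did not overlap, and the log2 fold change was -0.67 (standard error 0.15, limma adjusted p = 0.132, called in 1 of 18 alternatives). Nr1i3, the xenobiotic receptor CAR, was at -0.97 (standard error 0.16, limma adjusted p = 0.0544, called in 7 of 18 alternatives), also with no overlap, and Nfe2l2, the antioxidant response factor NRF2, at 0.77 (standard error 0.28, limma adjusted p = 0.282). Sox17 itself had dim signals of 4.53, 3.42 and 3.93 in WT and 4.63, 4.47, 4.77 and 4.71 in SHIVA livers (log2 fold change 0.69, limma adjusted p = 0.28, 0.09 to 0.97 over the alternatives) and was well above background on 2 of 3 WT and 4 of 4 SHIVA arrays. Since the SHIVA allele is a point mutation, this level does not check the genotype.

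The 10 genes include known PPARα targets on both sides of 0, with log2 fold changes of -0.46 for Fabp1, -0.73 for Fabp2, 1.60 for Fabp5 and 0.75 for Cd36. Known PPARα targets outside the 10 genes were examined as a list. All 16 were tested, 0 were called and 16 had log2 fold changes below 0, with a median of -0.95. In 9 of the 16 the genotypes did not overlap, beside 6.02% of all genes lower without overlap. Acot1, an acyl-CoA thioesterase, had -2.69 (standard error 0.75, limma adjusted p = 0.204) and Cyp4a14, a fatty acid hydroxylase, -2.27 (standard error 0.57, limma adjusted p = 0.164). Each was called in 2 of 18 alternatives, with adjusted p down to 0.014 for Acot1 and 0.0329 for Cyp4a14. The mean over the 16 genes was 12.90, 13.44 and 12.07 in WT and 11.57, 11.75, 11.57 and 11.69 in SHIVA livers, with WT 3 the lowest WT liver here as it was for Fabp1, Fabp2 and Fabp4.

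Markers of other cells that express Fabp4, Fabp5 or Cd36 were examined beside those genes, and 0 were called in any list. All 10 markers of Kupffer cells and macrophages were tested, 9 were higher and Cd163 lower, with a median log2 fold change of 0.35, and their mean signal was 9.28 to 10.38 in WT and 9.65 to 10.54 in SHIVA livers. All 10 endothelial markers were tested, with a median of 0.11 and means of 8.32 to 8.40 in WT and 8.40 to 8.52 in SHIVA livers. Of 10 adipocyte markers 5 were tested, with means of 8.15 to 9.51 in WT and 7.56 to 8.36 in SHIVA livers and a median of -0.72. In this list Plin1, Cfd, Retn and Lep were well above background on 0 arrays and Adipoq on 1. Adrb3, Lipe, Plin4 and Pck1 were so on all 7 and Cidec on 3. Pck1 had mean log2 signals of 16.28 in WT and 16.57 in SHIVA livers, as bright as the hepatocyte markers. The means and median of the 5 tested genes are therefore not a measure of adipocyte content.

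Of 6 red blood cell markers 3 were tested, with means of 10.11 to 10.52 in WT and 10.63 to 11.16 in SHIVA livers, which did not overlap. Taken singly, Alas2 had no overlap (log2 fold change 0.63, limma adjusted p = 0.237), while Hba-a1 (0.43) and Slc4a1 (0.35) overlapped. Stellate cell markers ranged from 7.38 to 7.96 in WT and 7.72 to 7.90 in SHIVA livers, bile duct markers from 5.12 to 6.41 and 5.05 to 5.72, and 3 of 8 exocrine pancreas markers that were tested from 7.19 to 7.76 and 7.76 to 8.06. The part of these cells in the higher Fabp4, Fabp5, Cd36 and Lpl signals was not tested.

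Direction held for most of the genes over 18 alternative settings. These changed the background correction, scaling, filter, probes, weights or test, or left out 1 mouse. Not every setting could move an estimate, so the settings are not independent checks of direction. Another test or filter left the log2 fold changes as they were, and averaging of probes moved Slc27a5 alone. The replicate block gave the same estimates as leaving out SHIVA 4. Fabp5 ranged from 1.20 to 2.16, Fabp4 from 0.61 to 1.04, Cd36 from 0.61 to 0.81, Fabp2 from -0.96 to -0.51 and Fabp1 from -0.58 to -0.32. Slc27a1 ranged from -0.57 to -0.21, with -0.56 without WT 1 and -0.21 without WT 2. Slc27a4 ranged from -0.38 to -0.18, with -0.20 without SHIVA 2 and -0.18 with normexp correction. Slc27a2, Slc27a5 and Fabp7 changed sign in 4, 5 and 1 of the settings. In the 7 fits that each left out 1 mouse, Cd36 and Fabp4 had an unadjusted limma p under 0.05 in 7, Fabp5 in 6, Fabp2 in 3 and Fabp1 in 2. Adjusted limma p in these 7 fits lay between 0.0951 and 0.392 for Cd36 and between 0.166 and 0.464 for Fabp4.

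**Figure D5:**
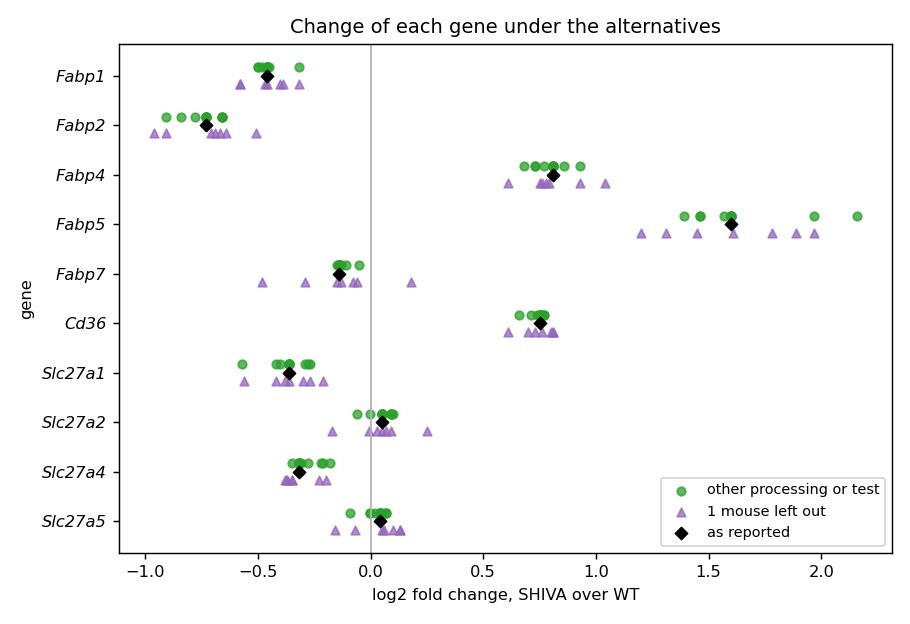
Log2 fold change of each of the 10 genes, SHIVA over WT (horizontal axis), as reported (black diamonds), under other processing or tests (green circles) and with 1 mouse left out (purple triangles). Fabp4, Fabp5 and Cd36 stay above 0 and Fabp1, Fabp2, Slc27a1 and Slc27a4 below 0, while Fabp7, Slc27a2 and Slc27a5 lie on both sides.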

How the data were processed

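Liver RNA of 3 WT and 4 SHIVA mice was hybridized to single-colour Agilent arrays, 1 per mouse. The authors deposited the scanner intensity of each spot from Agilent Feature Extraction 10.5.1.1 and a table of log2 values, described in the study's methods as quantile normalized raw values, whose rank order matched the mean spot signal on every array. Of 62976 spots per array 3671 were controls. Controls and 120 to 163 spots per array marked as uneven or deviant were left out. This left 41 missing values in tested genes and none among the 10 genes.

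Starting from the processed intensity, quantile normalization across all 7 arrays and a log2 transform were done in R 4.3.3. Probe names were updated with RefSeq (26413 probes named) and positions are mm9 as deposited. For the 10238 of 36492 gene names that several probes shared, the brightest one on average was used. Genes well above background on at least 3 arrays were tested with lmFit and eBayes in limma 3.58.1, threshold 0.05 after Benjamini-Hochberg adjustment over all 20002 genes. Differences between paralogs were tested by two-sided exact permutation over 35 splits. Each mouse is a sample of its genotype. Alternatives were other scaling, background correction, filters, probe summaries, weights, tests, the authors' table, the replicate number as a block, and leaving out each mouse.

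The procedure was checked on simulated arrays (20002 genes, 200 of them changed): 39% of changes of 1 log2 unit and 90.5% of 2 were called, while 7.14% and 2.69% of all calls were unchanged genes. A run with no changed genes gave 0 calls. The genes named are the 10, and of each list of pathway genes and regulators those called and the 2 tested genes with the largest absolute change, plus Ppara and Sox17. Mfsd2a, single cell type markers, and members of lists that were not tested, were named after their values were seen. The 10 genes and the lists were chosen with earlier results of these data known.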

Additional observations from a re-analysis of the deposited data

Results flagged for a closer look

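In each gene the SHIVA liver at the end of the range with the wider gap was searched for standing apart from the other 3. Of the 10 genes searched, 1 met that criterion: Slc27a4 in SHIVA 2, with a log2 signal of 5.74 against 6.21 to 6.25 in the other SHIVA livers. The gap made up 0.906 of the range, more than the 95% critical value of Dixon's test. Chance flags about 1 in 20 such groups, or 0.5 of 10. All SHIVA livers lay below every WT liver, so leaving out SHIVA 2 could not make the genotypes overlap. The log2 fold change without SHIVA 2 was -0.20. Fabp2 in SHIVA 4, at 12.48, fell just short with a share of 0.828.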

How the results depend on the processing

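Among all genes, 75 were called. The number was 142 with the mean signal without background correction, 142 with the authors' table, 13 with no filter on dim probes and 393 with array weights. It was 0 with the methods' t-test (2301 at an unadjusted p under 0.05) and 0 with the exact permutation (1462). Leaving out 1 mouse gave 3 (without WT 1) to 415 (without WT 3), and 8 without WT 2, 7 without SHIVA 1 and 13 without SHIVA 3. None of these settings called any of the 10 genes. The replicate number as a block gave 32 genes and 1 of the 10, Fabp5 (log2 fold change 1.97, adjusted p = 0.0475). The replicate number was also the column of the array on the slide. SHIVA 4 had no WT liver in its block, so the block gave the same estimates as leaving out SHIVA 4. Same-numbered mice had deviations that correlated at -0.05, 0.01 and 0.24, and not every mouse correlated best with its own number. These few correlations cannot decide whether the numbers pair the mice. Genes without overlap among the 10 were 2, and 1 (Cd36) with the mean signal, normexp correction or the authors' table. They were 2 to 5 with 1 mouse left out: 5 without WT 3 (beside 28.9% of all genes), 5 without SHIVA 4 (20.8%) and 4 without WT 1 (21.2%). Pairs of paralogs at the smallest possible p were 2, and 3 to 11 with 1 mouse left out, where fewer splits raise that smallest p, 11 being without SHIVA 4. Signs near 0 turned. Slc27a2 was -0.001 with 75th percentile scaling, -0.06 with array weights, -0.17 without WT 1 and -0.009 without SHIVA 3. Slc27a5 was -0.0015 with the mean signal, -0.0015 with normexp, -0.09 with array weights, -0.16 without WT 1 and -0.07 without SHIVA 2. Fabp7 was 0.18 without WT 1. With 1 mouse left out, Fabp7 spanned -0.48 to 0.18, Slc27a2 -0.17 to 0.25 and Slc27a5 -0.16 to 0.13. The cause was not tested.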

Other observations

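Lipid genes of the adipocyte list were singled out after their values were seen. Cidec, a droplet fusion protein, was well above background on 3 of 7 arrays, with log2 signals of 6.78, 7.90 and 3.53 in WT and 3.41, 4.50, 1.74 and 3.44 in SHIVA livers, so WT 1 and WT 2 stood above the rest. Plin4, a droplet coat protein, differed by -1.40 on the log2 scale (standard error 0.63, limma adjusted p = 0.394). Hormone-sensitive lipase, Lipe, had -0.72 (standard error 0.22, limma adjusted p = 0.225). The remaining tested genes of that list were Adrb3 at -0.05 (limma adjusted p = 0.956) and Pck1 at 0.28 (limma adjusted p = 0.555). None of these passed the test. In the macrophage list the scavenger receptors Marco and Cd163 lay on opposite sides, at 1.54 (standard error 0.61, limma adjusted p = 0.323) and -1.33 (standard error 0.29, limma adjusted p = 0.124).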
